A study of Mus musculus with 10 samples.

Results

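Shared factor sites newly acetylated with MyoD are places in the mouse genome where both MyoD and Myf5 bound, and where acetylated histone H4 (H4Ac) was called in cells carrying MyoD but not in cells carrying GFP. They were chosen by measured values, the peak calls of 4 lists, as the MyoD peaks that overlapped a Myf5 peak and an H4Ac peak of MyoD cells by at least 1 bp and overlapped no H4Ac peak of GFP cells. The rule gave 2682 sites of the 45015 MyoD peaks, or 6.11% (5.89 to 6.34) of the 43888 MyoD peaks that overlapped a Myf5 peak. All cells were mouse embryonic fibroblasts of the genotype MyoD-/-; Myf5-/-, infected with MyoD, with Myf5 or with GFP as the control, kept 24 h in growth medium from infection and then 20 h in differentiation medium. Of 10 samples, 7 had a peak list: MyoD in MyoD cells, Myf5 in Myf5 cells, H4Ac in MyoD, Myf5 and GFP cells, and mock precipitations of GFP cells with the MyoD and the Myf5 antibody. The other 3 were inputs of the H4Ac experiments, which were not analysed here. The factors were introduced into cells that lack both genes, so the sites describe binding of an introduced factor and not of the endogenous one.

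MyoD and Myf5, transcription factors of the basic helix-loop-helix family, set the skeletal muscle fate. They pair with E proteins, bind short DNA elements called E-boxes, and recruit histone acetyltransferases. In the embryo Myf5 is expressed early in muscle precursors, and MyoD is known as the stronger activator of muscle genes. Acetylation of the histone H4 tail loosens the packing of nucleosomes, is read by bromodomain proteins and is typical of active promoters and enhancers.

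Each group had 1 list, and each factor list joined 2 replicates by its title, so there is no replicate error, no test across replicates and no p-value. Intervals in parentheses are 95% binomial intervals, exact (Clopper-Pearson) for shares and from order statistics for medians. They cover counting error over peaks only, and neighbouring peaks are not independent. Coverage is the authors' highest read coverage in a peak, and sequencing depth is unknown. Classes of sites were compared by coverage within 1 list. Where H4Ac coverage, or its ratio to a cutoff, is set side by side for different lists, no common scale is known. Positions are in mm9. Genes and E-box sequences at the sites were not analysed here, because the reference tables used here are of GRCm38. No site overlapped a mock peak of either antibody, but the mock lists held only 942 and 1359 peaks. The same count over all MyoD peaks is not given here, so it is not known whether this sets the sites apart. Control coverage at the sites reached at most 17 in the MyoD list and 16 in the H4Ac list of MyoD cells. In the MyoD list its median was 5 at these sites and 5 at all shared sites.

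Both factors bound the newly acetylated sites strongly. The MyoD coverage of the 2682 sites ranged from 27 to 1479 with a median of 92 (89 to 96). Shared sites that had H4Ac in MyoD and in GFP cells (5619 sites, called already acetylated here) had a median of 61 (59 to 62). Shared sites with H4Ac in neither (34792 sites, called unacetylated here) had 48 (47 to 48), and the 795 sites with H4Ac in GFP but not in MyoD cells had 46 (45 to 49). The newly acetylated class thus had the highest median of the 4, although its lower quartile of 51 lay below the median of the already acetylated sites. Myf5 coverage was ordered alike, with medians of 204 (194 to 214) at newly acetylated, 126 (123 to 129) at already acetylated, 109 (108 to 110) at unacetylated sites and 101 (95 to 108) at sites with H4Ac in GFP but not in MyoD cells. MyoD and Myf5 coverage ran together over the 2682 newly acetylated sites (Spearman's rho 0.91, a description of sites that share their libraries).

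**Figure D1:**
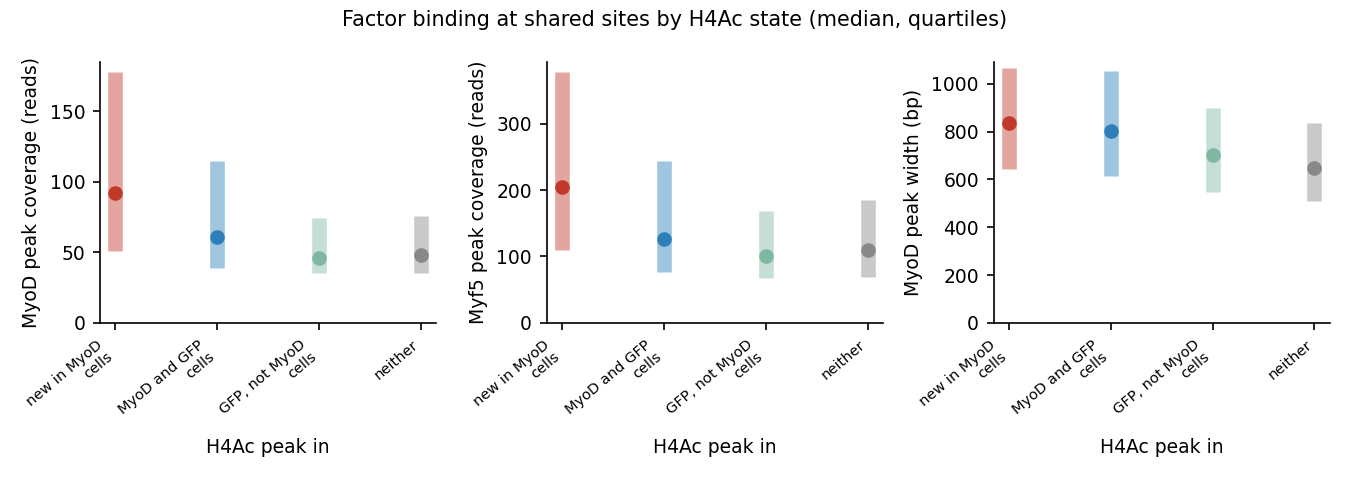
MyoD coverage, Myf5 coverage (reads) and MyoD peak width (bp) at shared sites in 4 H4Ac classes, with a point at the median and a bar over the quartiles of the sites. The newly acetylated sites have the highest median in each panel: 92 reads of MyoD, 204 of Myf5 and 837 bp.

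With the MyoD list split by coverage into 3 classes of equal size, 63.3% (61.4 to 65.1) of the newly acetylated sites fell in the strongest class and 14.7% (13.4 to 16.1) in the weakest. The strongest class held 45.2% (43.8 to 46.5) of the already acetylated sites, 30.2% (29.7 to 30.7) of the unacetylated sites and 34.1% (33.7 to 34.6) of all shared sites. Of the 1000 strongest MyoD peaks, 252 were newly acetylated shared sites (25.2%, 22.5 to 28.0), and of the 100 strongest, 35 were (25.7% to 45.2%). Over all MyoD peaks, 5.99% had an H4Ac peak in MyoD cells and none in GFP cells; the rule used that contrast, so the number is a description.

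The share of shared sites that gained H4Ac rose along the MyoD list. The list was split by coverage into 10 classes, and only shared sites without H4Ac in GFP cells were counted. In the weakest class, with a MyoD coverage of 27 to 30, 114 of 3626 sites had H4Ac in MyoD cells (3.14%, 2.60 to 3.76). Class 6, from 49 to 59, had 4.92% (4.26 to 5.65) and class 9, from 97 to 148, had 12.05% (11.0 to 13.1). In the strongest class, from 148 upwards, 834 of 3459 sites had it (24.1%, 22.7 to 25.6). The first 4 classes lay between 2.73% and 3.68% with overlapping intervals, so the rise was seen above the middle of the list. MyoD peaks of higher coverage were also wider (Spearman correlation 0.55 over the newly acetylated sites). A wider peak has more room to overlap an H4Ac peak. How far the rise depends on width was not tested.

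At the same sites in Myf5 cells the rise was smaller. H4Ac was called in Myf5 cells at 3.23% (2.68 to 3.85) of the sites in the weakest class and 9.25% (8.31 to 10.3) in the strongest. Splitting by Myf5 coverage instead gave the same order: in the strongest of 10 Myf5 classes, 21.1% (19.7 to 22.4) of the sites without H4Ac in GFP cells had it in MyoD cells and 8.26% (7.38 to 9.22) in Myf5 cells. In the weakest Myf5 class the shares were 2.52% (2.05 to 3.06) in MyoD cells and 2.49% (2.02 to 3.03) in Myf5 cells. Over all 37474 shared sites without H4Ac in GFP cells, 2682 had it in MyoD cells (7.16%, 6.90 to 7.42) and 1575 in Myf5 cells (4.20%, 4.00 to 4.41). Both counts leave out the same GFP list, and the H4Ac list of MyoD cells had lower coverage cutoffs (19 to 26) than those of Myf5 cells (20 to 31) and GFP cells (21 to 30). With H4Ac coverage of at least 2 times the cutoff, 224 sites (0.598%, 0.522 to 0.681) passed in MyoD cells and 77 (0.205%, 0.162 to 0.257) in Myf5 cells. That limit was also lower in reads in MyoD cells, so it does not remove the difference in cutoffs.

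Loss of H4Ac ran the other way with MyoD coverage. Among shared sites with H4Ac in GFP cells, 12.4% (11.6 to 13.2) had none in MyoD cells and 19.8% (18.9 to 20.8) had none in Myf5 cells. In every GC bin the H4Ac cutoff was lowest in MyoD cells. From 45% to 50% GC, for example, it was 22, against 27 in Myf5 and 26 in GFP cells. How far missing calls depend on these cutoffs, or on the width of the MyoD peak, was not tested. In MyoD cells the missing share was 17.4% (14.0 to 21.2) in the weakest of the 10 classes and 5.51% (4.20 to 7.08) in the strongest. In Myf5 cells it was 21.8% (18.1 to 25.9) in the weakest and 16.1% (13.9 to 18.5) in the strongest, with overlapping intervals. At the most strongly bound sites, new H4Ac calls in MyoD cells (834) therefore outnumbered missing ones (57) by more than in the weakest class (114 and 79).

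**Figure D2:**
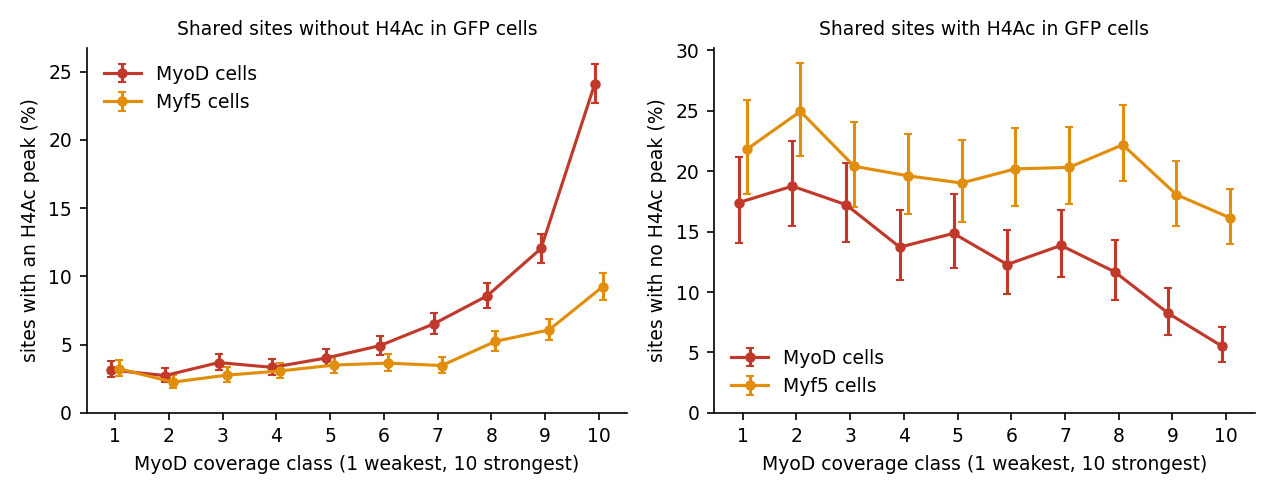
Share of shared sites with an H4Ac peak among those without one in GFP cells (left) and share with no H4Ac peak among those with one in GFP cells (right), in MyoD and Myf5 cells, over 10 classes of MyoD coverage from weakest to strongest. Points are percentages and bars exact 95% binomial intervals; on the left the lines part in the upper classes, to 24.1% in MyoD cells and 9.25% in Myf5 cells.

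The 10 newly acetylated sites with the highest MyoD coverage ranged from 887 to 1479 in MyoD coverage and from 1589 to 3105 in Myf5 coverage. The first, at chr12:113089460-113090968, had a MyoD coverage of 1479, a Myf5 coverage of 3105, 3 H4Ac peaks in MyoD cells of up to 67, and no H4Ac peak in Myf5 cells. The next, at chr10:70755029-70755685, had 1379 and 2287 for the factors and 1 H4Ac peak of coverage 52 in MyoD cells, again with none in Myf5 cells. H4Ac was called in Myf5 cells at 4 of these 10 sites, close to the 38.1% of all newly acetylated sites, and Myf5 coverage at all 10 was far above the median of 204.

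Those 4 sites had more H4Ac relative to the cutoff in MyoD cells than in Myf5 cells. At chr5:64727285-64729071 (MyoD 1195, Myf5 2496) the H4Ac coverage was 89 in MyoD cells, 4.05 times its cutoff, and 77 in Myf5 cells, 2.85 times its cutoff. At chr4:106649438-106650597 (MyoD 1053, Myf5 2291) it was 54 in MyoD cells and 29 in Myf5 cells, or 2.45 and 1.07 times the cutoffs. The sites at chr12:86159685-86161052 (MyoD 983, Myf5 2354) and chr15:10869627-10870613 (MyoD 930, Myf5 2326) had 2.32 and 2.24 times the cutoff in MyoD cells, against 1.22 and 1.12 times in Myf5 cells. The last of these lay 51 bp from a GFP peak of coverage 28.

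The remaining 4 of the 10 had H4Ac in MyoD cells alone. The sites at chr5:134482285-134483173 (MyoD 927, Myf5 1589), chr19:46973370-46975034 (892 and 2990), chr19:33142580-33143822 (889 and 2800) and chr16:94570236-94571046 (887 and 1845) had 1.05, 1.24, 1.33 and 1.5 times the cutoff, against a median of 1.23 times over all newly acetylated sites.

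H4Ac at the newly acetylated sites was modest in size. These values belong to the contrast that chose the sites and are descriptions. The strongest H4Ac peak at each site had a median coverage of 27 (26 to 27) in MyoD cells, against 44 (43 to 44) at already acetylated sites. Relative to the cutoff the medians were 1.23 times at newly acetylated and 2.00 times at already acetylated sites, and 766 of the 2682 sites (28.6%, 26.9 to 30.3) reached at most 1.1 times. The widest H4Ac peak at a site had a median width of 223 bp (215 to 231) and 419 bp (410 to 427) in the 2 classes. Coverage reached the cutoff that the GFP list has for the same GC bin at 1798 sites (67.0%, 65.2 to 68.8). The rest were below it, since the MyoD list has the lower cutoff in every bin.

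Stronger MyoD binding went with a little more H4Ac over the cutoff. The Spearman correlation between them over the 2682 sites was 0.19, a weak relation given as a description. Sites with H4Ac of at least 1.5 times the cutoff (631) had a median MyoD coverage of 133, and those with at least 2 times (224) had 189.5. Of these 224 sites, 195 (87.1%, 81.9 to 91.2) were in the strongest of the 3 MyoD classes.

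The H4Ac peaks overlap the factor peak by the rule, and at most newly acetylated sites none covered its centre. An H4Ac peak narrower than the MyoD peak can overlap it without covering its centre. Of the newly acetylated sites, 2156 (80.4%, 78.8 to 81.9) had 1 H4Ac peak in MyoD cells, 448 had 2 and 78 had 3 or 4. Newly acetylated sites had 2 or more in 19.6% (18.1 to 21.2), against 43.96% (42.7 to 45.3) of already acetylated sites. The centre of the MyoD peak lay inside an H4Ac peak at 29.1% (27.4 to 30.8) of newly acetylated and 50.97% (49.7 to 52.3) of already acetylated sites. The widest H4Ac peak had a median of 223 bp at newly and 419 bp at already acetylated sites. How far the shares at the centre depend on the width and number of H4Ac peaks was not tested. The share inside an H4Ac peak of MyoD cells was highest 150 bp from the centre (33.9%). The median distance between the centres of the H4Ac and the MyoD peaks was 225 bp. H4Ac peaks of Myf5 cells, which the rule did not use, also had their maximum beside the centre of the newly acetylated sites, with 13.8% at the centre, 15.4% at 150 bp and 4.47% at 1000 bp. GFP peaks are 0 at the centre by the rule and covered 3.0% at 1000 bp, a level close to the 4.12% for MyoD cells there.

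**Figure D3:**
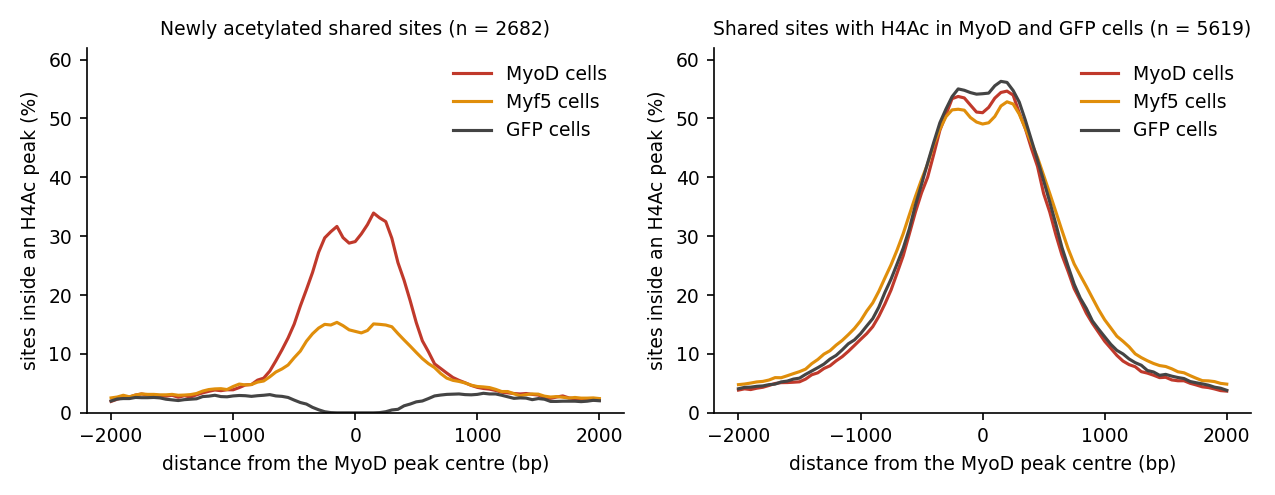
Share of sites whose position at a given distance (bp) from the MyoD peak centre lies inside an H4Ac peak of MyoD, Myf5 or GFP cells, at newly (left) and already (right) acetylated shared sites. At the newly acetylated sites the MyoD line peaks at 33.9% and the Myf5 line at 15.4%, both beside the centre, while at already acetylated sites the 3 lines lie close together.

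The rule removed sites that overlap a GFP peak, so separation from H4Ac of GFP cells is partly given by it. Newly acetylated sites lay nearer to GFP peaks than unacetylated sites, which overlap none either. The median gap to the nearest GFP peak was 16632 bp (15471 to 17672), against 25754 bp (25247 to 26315) for unacetylated sites. Within 500 bp of a GFP peak lay 289 newly acetylated sites (10.8%, 9.63 to 12.0) and 2.80% (2.63 to 2.98) of the unacetylated ones. At 2640 sites (98.4%, 97.9 to 98.9) an H4Ac peak of MyoD cells overlapped no GFP peak at all, and at the other 42 every such peak reached a GFP peak outside the factor site. Just inside the rule, sites at chr4:98590742-98591181, chr17:8702403-8702972 and chr11:100844849-100845204 lay 1, 1 and 2 bp from a GFP peak, with MyoD coverages of 45, 29 and 43. Just outside it, already acetylated sites at chr3:60192351-60193270, chr14:52503109-52503569 and chr1:79750026-79750429 overlapped a GFP peak by 1 bp and had MyoD coverages of 170, 48 and 30.

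In cells with Myf5, H4Ac was called at 1022 of the 2682 newly acetylated sites (38.1%, 36.3 to 39.97). The same call was made at 15.1% of all MyoD peaks and at 1.59% of shared sites with no H4Ac in MyoD or GFP cells, and at 86.8% (85.9 to 87.7) of the already acetylated sites. The sites were chosen against the GFP list, and the peaks of Myf5 cells at them also lie outside it, so the share is not independent of that list. The 1.59% belongs to sites chosen for having no H4Ac peak in MyoD cells, so the distance to it is partly given by the rule too. The other 1660 sites had H4Ac in MyoD cells alone.

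Sites with H4Ac in MyoD cells alone were bound no less by Myf5. Myf5 coverage had a median of 180 (167 to 194) at the 1022 sites with H4Ac in Myf5 cells and 220 (207 to 232) at the 1660 without. MyoD coverage was 84 (77 to 89) with and 99 (94 to 105) without H4Ac in Myf5 cells. Over the 10 classes of MyoD coverage, the share of newly acetylated sites with H4Ac in Myf5 cells was 50.9% (41.3 to 60.4) in the weakest and 32.7% (29.6 to 36.0) in the strongest. By Myf5 coverage it was 45.4% (35.2 to 55.8) in the weakest and 32.5% (29.2 to 36.0) in the strongest class. Both splits ran from a higher share at weakly bound to a lower share at strongly bound sites.

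More H4Ac in MyoD cells, in contrast, went with H4Ac in Myf5 cells. H4Ac over the cutoff in MyoD cells had a median of 1.37 times (1.33 to 1.41) at sites with H4Ac in Myf5 cells and 1.18 times (1.16 to 1.19) at those without. At 1.5 times the cutoff or more, 64.0% (60.1 to 67.8) of 631 sites had H4Ac in Myf5 cells, and at 2 times or more, 71.9% (65.5 to 77.7) of 224. Both orders were present together. Among sites under 1.2 times the cutoff, H4Ac in Myf5 cells was called at 32.04% (25.7 to 38.9), 30.0% (24.8 to 35.6) and 21.2% (18.3 to 24.3) in the weakest, middle and strongest of the 3 MyoD classes. From 1.2 to under 1.5 times the shares were 50.4% (41.5 to 59.2), 47.3% (40.3 to 54.4) and 30.3% (26.2 to 34.6). At 1.5 times or more they were 70.7% (57.3 to 81.9), 76.3% (66.6 to 84.3) and 60.7% (56.2 to 65.1). The strongest class was the lowest of the 3 at each level of H4Ac, with an interval clear of both others at the 2 lower levels and clear of the middle class alone at 1.5 times or more.

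**Figure D4:**
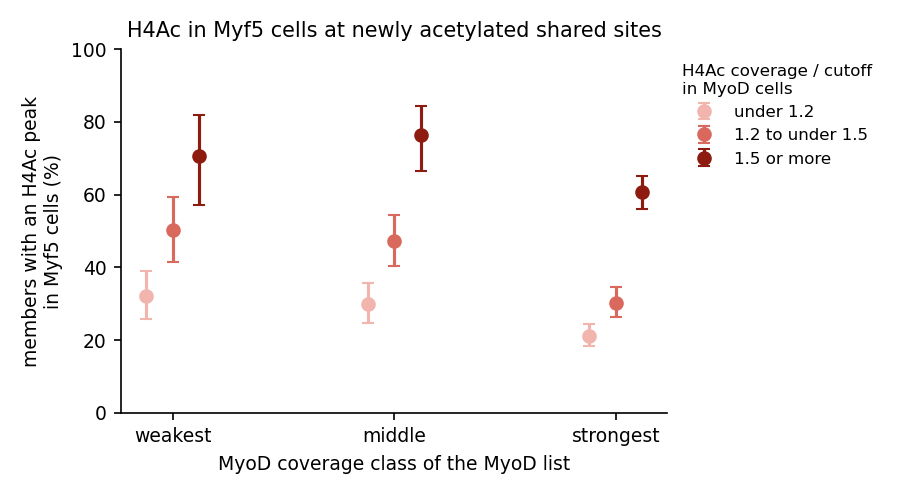
Share of newly acetylated shared sites with an H4Ac peak in Myf5 cells, by MyoD coverage class and by H4Ac coverage over its cutoff in MyoD cells; points are percentages, bars exact 95% binomial intervals. The share rises with H4Ac in MyoD cells, to between 60.7% and 76.3%, and is lowest in the strongest MyoD class at each level.

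At the 1022 sites with H4Ac in both, H4Ac over the cutoff was higher in MyoD cells at 650 (63.6%, 60.6 to 66.6) and equal at 10. The medians were 1.37 times in MyoD cells and 1.25 times in Myf5 cells. Since a peak in MyoD cells was required and one in Myf5 cells was not, this order is partly given by the rule. In reads the order was the reverse, with a median H4Ac coverage of 29 (29 to 30) in MyoD cells and 32 (31 to 32) in Myf5 cells. The cutoff was lower in MyoD cells in every GC bin, and no common scale of the lists is known. Myf5 coverage and H4Ac over the cutoff in Myf5 cells had a Spearman correlation of -0.01 over these sites.

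The sites with most H4Ac lay in part next to chromatin acetylated in GFP cells. By H4Ac over the cutoff in MyoD cells the first was chr18:14841761-14842445, with an H4Ac coverage of 312 in MyoD cells and 208 in Myf5 cells but a MyoD coverage of only 52. It lay 11 bp from a GFP peak of coverage 434, which its H4Ac peak of MyoD cells overlapped. The third, chr2:28378748-28379855 (MyoD 273, Myf5 575), had an H4Ac coverage of 149 in MyoD cells, no peak in Myf5 cells, and likewise an H4Ac peak that reached a GFP peak, 398 bp from the site. The other 3 of the first 5 were 6878 to 48878 bp from a GFP peak: chr4:59243812-59244668, chr17:48138833-48139468 and chr5:77211194-77212231, with 7.05, 5.59 and 5.45 times the cutoff in MyoD cells and 2.58, 3.33 and 1.85 times in Myf5 cells.

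By H4Ac coverage in Myf5 cells, all of the first 5 sites lay within 269 bp of a GFP peak. After the chr18 site these were chr1:130297088-130297478, chr16:36820657-36821294, chr2:25082095-25082887 and chr6:115802899-115803621. Their H4Ac coverages were 34, 24, 26 and 30 in MyoD cells, against 167, 163, 143 and 131 in Myf5 cells. Among sites at least 2000 bp from a GFP peak, a limit chosen after these values were seen, the first 5 had 77 to 90 in Myf5 cells and 72 to 123 in MyoD cells. Those not yet named were chr12:11227971-11228980 (MyoD 260, Myf5 921), chr13:30748487-30749268 (275 and 851) and chr17:64853879-64854695 (143 and 365). The last had an H4Ac coverage of 72 in MyoD cells and 77 in Myf5 cells, or 3.43 and 3.21 times the cutoffs. Over the whole class, H4Ac was called in Myf5 cells at 50.9% (44.9 to 56.8) of the 289 sites under 500 bp from a GFP peak. The share was 41.5% (34.5 to 48.8) of 195 sites from 500 to under 2000 bp. It was 36.3% (32.3 to 40.4) of 562 sites from 2000 to under 10000 bp. At the 1636 sites 10000 bp or more away it was 36.1% (33.7 to 38.4), so it differed little beyond 2000 bp. Median MyoD coverage was 59, 87, 90.5 and 100.5 in these sets, in the same order.

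MyoD peaks at the newly acetylated sites were wide for the list, with a median of 837 bp (822 to 849) against 802 bp (792 to 811) at already acetylated and 648 bp (645 to 652) at unacetylated sites. Width followed coverage, with a Spearman correlation of 0.55 over the sites. Within the strongest of the 3 MyoD classes the medians were 933 bp (917 to 949) at newly acetylated, 939 bp (920 to 951) at already acetylated and 809 bp (802 to 814) at unacetylated sites. In the middle class they were 689 bp (673 to 717), 748 bp (726 to 764) and 632 bp (627 to 637), and in the weakest 572 bp (548 to 608), 643 bp (624 to 659) and 541 bp (537 to 545). Newly acetylated sites were thus wider than unacetylated ones in each class and, outside the strongest class, narrower than already acetylated ones. A wider MyoD peak has more room to overlap an H4Ac peak, and the kinds of site were set by such overlaps. The order of widths is therefore partly given by the rule. Strength was not alike within the strongest class, where the median MyoD coverages of the 3 kinds of site were 146 (139 to 153), 124 (120 to 127) and 103 (102 to 104).

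In GC content the newly acetylated sites were closer to the unacetylated than to the already acetylated ones. The authors' bin of at most 40% GC held 401 of them (15.0%, 13.6 to 16.4), against 15.1% of all MyoD peaks, 15.7% (15.3 to 16.1) of unacetylated and 6.51% (5.88 to 7.19) of already acetylated sites. The gap to the already acetylated sites held within each MyoD class: 17.0% and 7.40% in the weakest, 14.9% and 5.74% in the middle, and 14.5% and 6.54% in the strongest. The bins above 50% GC held 301 and 44 of the newly acetylated sites (11.2% and 1.64%), against 17.5% and 3.10% of the already acetylated and 13.8% and 2.29% of the unacetylated sites. Newly acetylated sites were thus the scarcest of these 3 classes above 50% GC, and already acetylated sites the scarcest at or below 40% GC.

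Newly acetylated sites were found on all chromosomes in the lists, mostly one by one. They made up between 4.83% (3.93 to 5.86) of the shared sites on chromosome 7 and 7.80% (6.88 to 8.80) on chromosome 10, with 5.82% (4.29 to 7.69) on the X chromosome. Chromosome 10 lay clear of chromosomes 2, 4, 5, 7, 11, 13 and 17 by these intervals, which do not allow for picking the extremes of 20 chromosomes. In windows of 100 kb, 1958 of the 2285 windows with a newly acetylated site held 1, and 59 held 3 or more, with 188 sites in all. Another newly acetylated site lay within 50 kb of 727 of them (27.1%, 25.4 to 28.8). The same was true of 21.3% of all shared sites and of 20.4% (20.02 to 20.9) of unacetylated ones. Of the shared sites within 50 kb of a newly acetylated site, 8.31% were newly acetylated, against 6.23% around an unacetylated site. A neighbour was thus more often of the same class, yet most neighbours were not. Some neighbours shared an H4Ac peak, since 21 H4Ac peaks of MyoD cells held more than 1 newly acetylated site. Another MyoD peak lay within 500 bp of 13.4% of newly acetylated and 8.24% of unacetylated sites. How far the neighbour shares depend on this was not tested.

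The fullest windows mixed newly acetylated with other shared sites. On chromosome 9, the window from 116200001 to 116300000 held 5 newly acetylated sites among 10 shared sites, with MyoD coverages of 36 to 442, and 3 of the 5 had H4Ac in Myf5 cells. On chromosome 10, the window from 57800001 to 57900000 held 5 among 12, with MyoD coverages of 34 to 353, and 2 had H4Ac in Myf5 cells. A further 7 windows held 4, and 3 of these, with 8 or 9 shared sites, began at 28500001 on chromosome 13, at 92900001 on chromosome 5 and at 39300001 on chromosome 10. In each of these 3 windows, 1 of the 4 sites had H4Ac in Myf5 cells. The 5 windows named also held 3 to 4 unacetylated shared sites each.

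**Figure D5:**
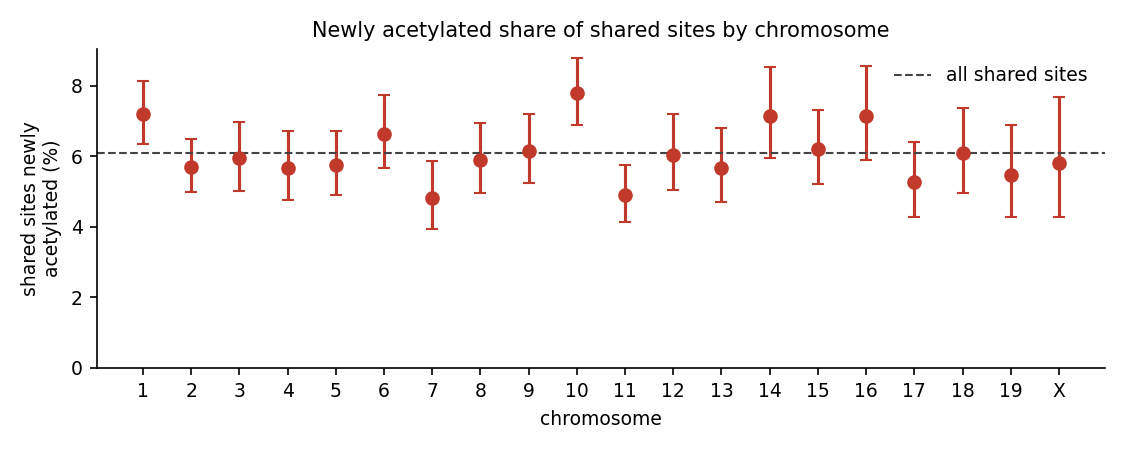
Share of shared sites that were newly acetylated on each chromosome; points are percentages, bars exact 95% binomial intervals, and the dashed line the 6.11% of all shared sites. The points lie between 4.83% (chromosome 7) and 7.80% (chromosome 10).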

How the data were processed

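Per the labels' protocols, chromatin for MyoD and Myf5 was fixed for 11 min and sheared by sonication, and that for H4Ac was not fixed and was digested for 18 min by micrococcal nuclease (15 units). The submitters' processing notes name CASAVA 1.8.2, BWA 0.7.5 and the builds mm9 and hg19 without a role; positions were read as mm9 and not converted. The peak caller is not given in the sources used here. The deposited lists give, per the file headers, a maximum coverage (signal), a coverage cutoff for each of 5 GC bins, a width and a p-value for each peak, all the authors' own; the p-values served no result. How coverage was scaled is not given, so classes of sites were compared by coverage within 1 list. H4Ac coverages and cutoffs of different lists, where set side by side, have no known common scale. A low cutoff in 1 list can create calls that another lacks.

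An overlap was 1 bp or more. A site took the strongest overlapping peak of each other list. Coverage classes were cut by rank, with ties in file order. Named positions are the 10 sites with most MyoD coverage, the 5 with most H4Ac over the cutoff in MyoD cells, the 5 with most H4Ac in Myf5 cells, the 5 fullest windows of 100 kb (ties by fewest shared sites, then by chromosome name), and 3 sites on each side of the GFP limit. Added after their values were seen were the 5 sites with most H4Ac in Myf5 cells at least 2000 bp from a GFP peak. The parts of this rule on genes and E-boxes were not run, because no mm9 reference was used. Members, measures and alternatives were chosen with earlier results of these data known. The class step was tested on 40000 simulated sites and put 100% in their planted class. Software was scipy 1.17.1, pandas 2.3.3 and numpy 2.4.6 in Python 3.11.15, with figures from matplotlib 3.10.9.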

Additional observations from a re-analysis of the deposited data

How the results depend on the processing

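Each of 6 results was recomputed under 11 alternatives (leaving out mock regions changed nothing, since 0 sites lay in one), 2 of them (the last named below) added after seeing the data: the number of sites, the shares with H4Ac in Myf5 cells, in the strongest of 3 MyoD classes and in the lowest GC bin, the median MyoD peak width, and the excess of H4Ac in Myf5 cells over unacetylated shared sites (36.5 percentage points). The excess stayed between 34.3 and 62.4 percentage points. Newly acetylated sites were chosen with, and unacetylated sites without, an H4Ac peak in MyoD cells. A positive excess is therefore partly given by the rule, and its constant sign is a description. The other results are a count, shares and a width, which cannot change sign. Of the 60 values under the other 10 alternatives, 31 stayed within the counting interval of the reported value, and 29 moved beyond it. For the number of sites the limit was 1.5 times instead. The cause was not tested except where fewer sites were admitted by construction. With overlaps of at least 100 bp, 65.9% were in the strongest class, 13.4% in the lowest GC bin and the width was 859 bp. With the MyoD centre inside the other peaks, there were 779 sites, 35.4% with H4Ac in Myf5 cells, 11.7% in the lowest GC bin and a width of 865 bp. Without sites within 500 bp of a GFP peak, 65.4% were in the strongest class and the width was 853 bp; without those within 2000 bp, the values were 65.6% and 857 bp, and 36.1% had H4Ac in Myf5 cells. At 1.5 times the H4Ac cutoff, 631 sites gave 64.0% with H4Ac in Myf5 cells, an excess of 62.4 points, 75.4% in the strongest class and a width of 893 bp. With the H4Ac list of MyoD cells held to the length of the GFP list the values were 41.5% with H4Ac in Myf5 cells, an excess of 39.6 points and 65.2% in the strongest class. With factor peaks above their list's median coverage they were 36.0%, 34.3 points and 83.4%, with a width of 902.5 bp. Merging MyoD peaks under 1000 bp apart gave 896 bp. With H4Ac coverage of at least the GFP cutoff, 45.8% had H4Ac in Myf5 cells, an excess of 44.2 points, 65.7% were in the strongest class and 17.1% in the lowest GC bin. Requiring an H4Ac peak free of any GFP peak moved none of the 6. No paired analysis was possible because each group has 1 list. Depth is unknown, so a site without an H4Ac peak is one where none was called, not one without acetylation.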

Other observations

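The newly acetylated sites of MyoD cells were bound more strongly than the 553 shared sites with H4Ac in Myf5 cells but in neither MyoD nor GFP cells. Median MyoD coverage was 92 at the newly acetylated sites and 50 at the 553, and median Myf5 coverage was 204 and 112. In the strongest of the 3 MyoD classes were 63.3% of the newly acetylated sites and 36.3% of the 553, and in the lowest GC bin 15.0% and 20.4%. Of the shared sites without H4Ac in GFP cells, 7.16% had it in MyoD cells, against 15 of 1072 such MyoD peaks without a Myf5 peak (1.40%, 0.785 to 2.30). These sets were not matched for MyoD coverage. The strongest of the 3 equal MyoD classes held 14982 shared sites and few MyoD peaks without a Myf5 peak. At shared sites the share was 3.14% (2.60 to 3.76) at MyoD coverages of 27 to 30 and 24.1% from 148 upwards. Whether the sets differ at equal MyoD coverage was not tested.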
